A study of Mus musculus with 4 samples.

Results

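Growth factor receptors are the proteins through which blood-forming cells receive cytokines that keep them alive and direct them into a lineage. 9 receptor genes were described here, chosen by name out of the 32285 genes of the count tables: the tyrosine kinase genes Kit, Flt3, and Csf1r, the homodimeric receptor genes Epor and Csf3r, and the chain genes Csf2ra, Il3ra, Il7r, and Csf2rb. Each had UMIs in every library. A UMI, or unique molecular identifier, stands for 1 captured messenger RNA molecule. Levels are given as UMIs per 1000000 UMIs (CPM) of a cell class in a library, and as the share of barcodes of that class with at least 1 UMI.

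Single-cell RNA-sequencing had been performed on cells of bone marrow (BM) and spleen from C57BL/6J mice, female and 8 to 16 weeks of age. Control BM (CBM) and control spleen (CS) came from mice without tumors. Tumor BM (TBM) and tumor spleen (TS) came from mice bearing PyMT-B6 tumors, grown from a cell line derived from mammary tumors of MMTV-PyMT mice. In those mice the MMTV promoter, which works chiefly in mammary gland cells, drives the PyMT oncogene. Each of the 4 groups is 1 library, and how many mice a library holds is not given in the sources used here, so no difference between groups has a replicate check. No p-value is given, and every interval covers counting error only. In all 4 groups, lineage-positive cells were depleted, cells were sorted into CD45+ c-Kit+ gates with and without Sca-1 and into CD45- gates on CD31 and CD51, and equal parts of these populations were pooled. The size of a class is thus a share of a pool. The level of Kit is partly set by the c-Kit gate, which selects for its protein.

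Barcodes with at least 1000 genes and at most 10% mitochondrial UMIs were kept, 3497 in CBM and 4340 in TBM, and 3236 in CS and 5188 in TS. Their median depth was 13738 to 14386 UMIs in the BM libraries and 26322.5 to 26808 in the spleen libraries, and 10 to 17 kept barcodes of a library were also found in another. Clusters were given 13 class names from fixed markers, without the receptors, which left 12229 of 16261 barcodes named. The hematopoietic stem and progenitor cell (HSPC)-like class held 820 barcodes in CBM and 923 in TBM, and 151 in CS and 694 in TS. It joined 3 clusters whose shares differed: cluster 0 held 682 of the CBM and 694 of the TBM barcodes but 48 of those of TS, whereas cluster 5 held 372 and cluster 19 held 274 of those of TS. Dusp2, Cxcl2, Ly6a, and Egr1 led cluster 19, so immediate-early and chemokine genes stood among its leading genes. Values within single clusters are therefore also given for Kit, Flt3, Csf1r, Csf3r, and Csf2rb. 13 clusters did not meet the naming rule and stayed unnamed. Among these were cluster 14, led by F13a1, Slpi, and Ly6c2 but also by Mpo (445 barcodes in CBM and 27 in TBM, and 93 in CS and 1 in TS), and cluster 8, led by Trnp1 and Hes1, which held 678 barcodes in TS and at most 9 in another library. Barcodes with at most 100 UMIs, taken to hold free RNA, also carried receptor messages, and their level is given for comparison. It does not say how much free RNA a cell barcode took up. A class was therefore called above background where its share of barcodes with a UMI, after each was thinned to 2000 UMIs, had an interval above that of the hemoglobin-rich erythroid-like cells of its library (61 to 150 barcodes), which were taken to lack these receptors other than Epor. This rule was set after values had been seen, and a share that does not pass it was not separated from background at this depth. In the spleen the background had 65 barcodes in CS and 61 in TS, so even 0% has upper limits of 5.52% and 5.87%. A share whose interval begins below these limits cannot pass there.

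Kit, Flt3, and Csf1r are receptor tyrosine kinases, bound by stem cell factor, Flt3 ligand, and the macrophage growth factors CSF1 and IL-34. Epor and Csf3r encode receptors that signal as pairs of identical chains, for erythropoietin in red cell precursors and for G-CSF in the neutrophil lineage. Csf2ra and Il3ra encode the chains that give specificity for GM-CSF and IL-3. Both signal through JAK2 and STAT5 with the common beta chain, encoded by Csf2rb. In mice the IL-3 chain can also signal with an IL-3-specific beta chain, encoded by Csf2rb2. Il7r encodes the chain shared by the receptors for IL-7, which lymphocyte precursors need, and for TSLP.

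**Figure D1:**
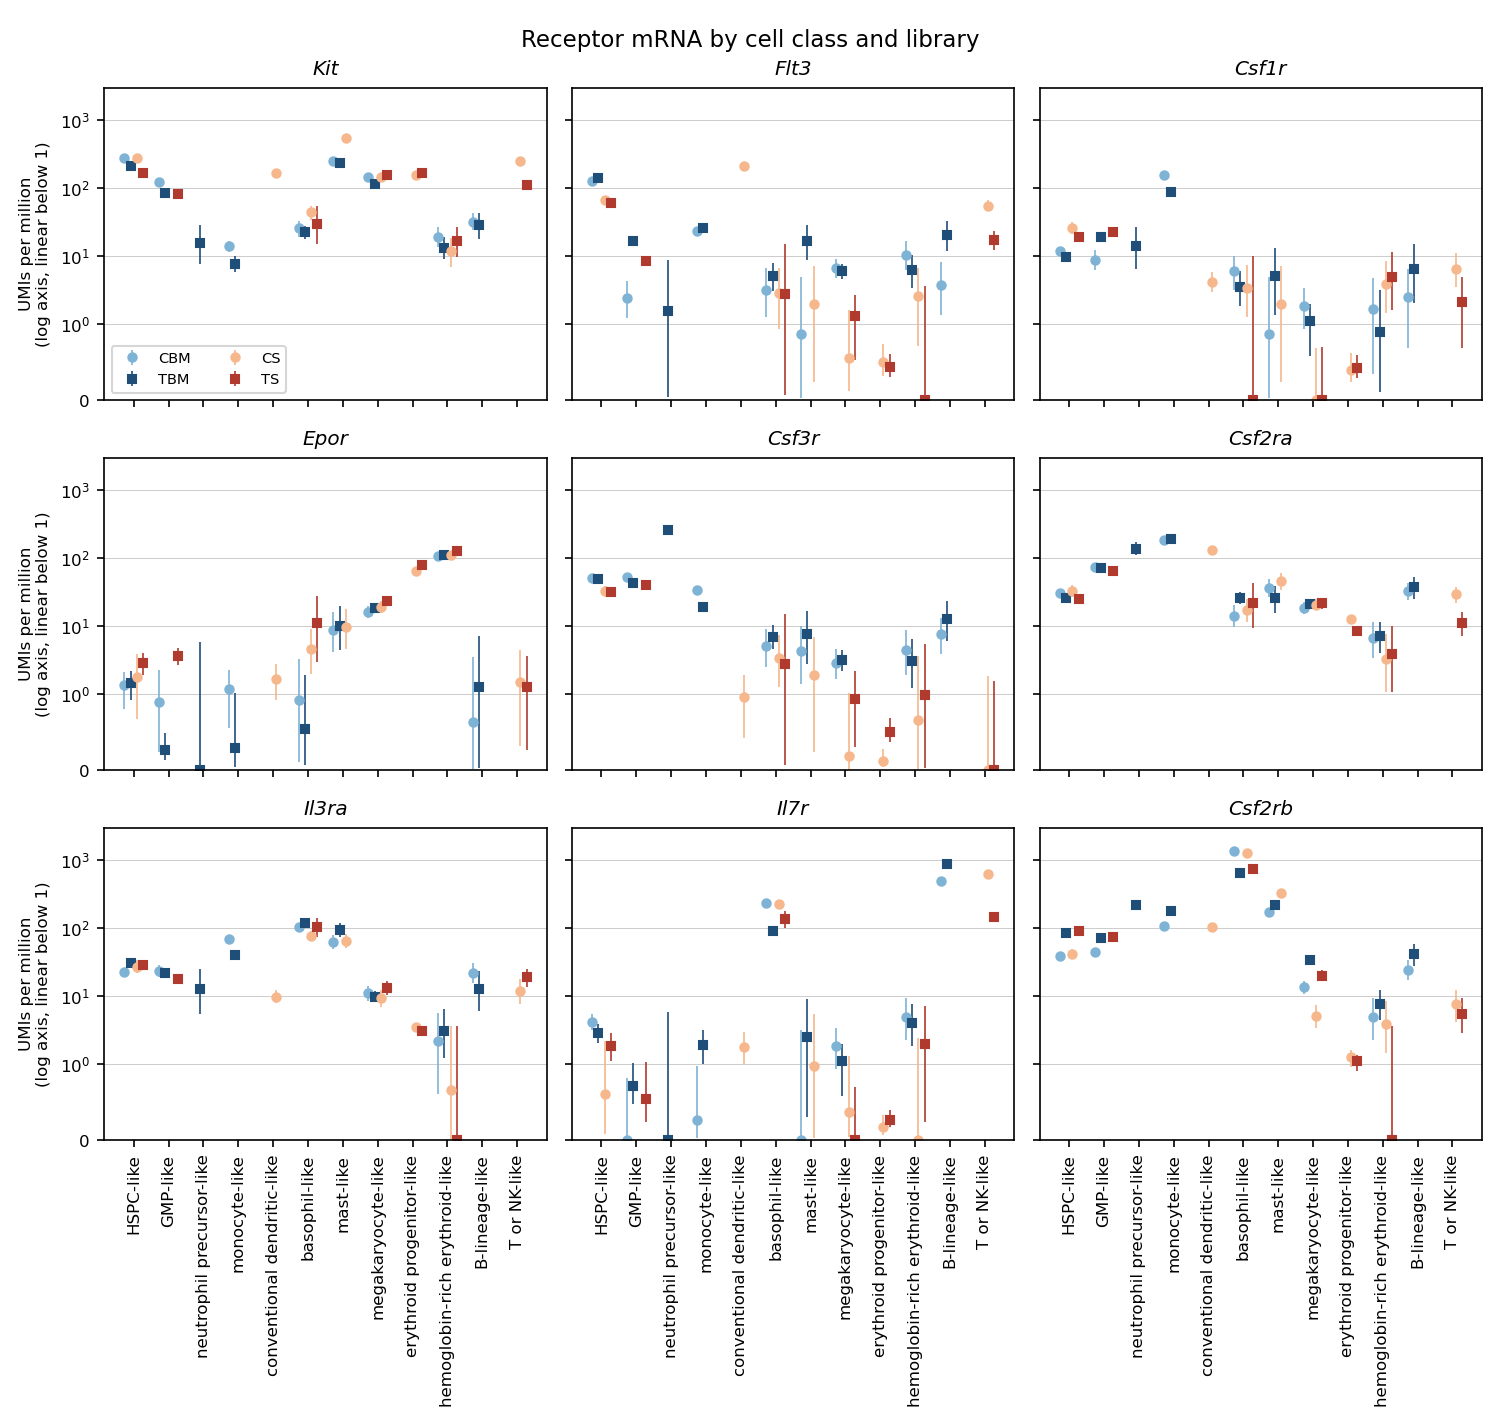
Level of each receptor (CPM, log axis that is linear below 1) in each cell class with at least 50 barcodes in a library. Points are libraries (CBM, TBM, CS, and TS, 1 each) and bars are exact Poisson 95% intervals. Epor was highest in hemoglobin-rich erythroid-like cells and Il3ra and Csf2rb were highest in basophil-like cells of all 4 libraries.

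3 receptors had the same class at the top in all 4 libraries, and 1 had with at least 1500 genes per barcode or with classes set by the marker UMIs of each barcode. Epor was highest in hemoglobin-rich erythroid-like cells, and Il3ra and Csf2rb were highest in basophil-like cells. The top class of the other 6 receptors changed between libraries, in part because libraries lack classes. CS held 49 GMP-like and 21 monocyte-like barcodes and TS held 3 monocyte-like ones, and a class was counted only where a library held at least 50. The plot of levels by class holds every such value.

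Kit (chr5:75574916-75656722 of GRCm38, plus strand) is the receptor of stem cell factor. In HSPC-like cells its level was 275 CPM in CBM (3622 UMIs) and 212 in TBM, and 281 in CS and 169 in TS (1832 UMIs). Both tumor libraries thus stood below their controls. The log2 ratio was -0.38 (95% interval -0.45 to -0.31) for TBM over CBM and, for TS over CS, -0.73 (-0.85 to -0.62), short of 2-fold in both. The order held within cluster 0, at 302 CPM in CBM and 233 in TBM, and within cluster 5, at 277 CPM in CS and 153 in TS. In cluster 0 of the spleen it was 271 CPM in CS and 218 in TS (48 barcodes), at -0.32 (-0.64 to -0.01). GMP-like cells, the granulocyte and monocyte precursors, had Kit at 121 CPM in CBM, 84.4 in TBM, and 83.0 in TS. Within their cluster 4, which CS held with 36 barcodes, Kit was 123 CPM in CBM and 84.0 in TBM, and 135 in CS and 73.2 in TS. Free RNA held Kit at 98.9 CPM in CBM and 77.0 in TBM, and at 93.2 in CS and 119 in TS, so the GMP-like levels of TBM and TS are of that size, but their shares, at 15.1% and 15%, were above background.

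Other classes had as much Kit as the HSPC-like cells. Mast-like cells, which depend on stem cell factor, had 246 CPM in CBM, 236 in TBM, and 543 in CS. Only in CS did the interval of the mast-like cells stand apart from that of the HSPC-like cells. In TS, HSPC-like cells (169 CPM), erythroid progenitor-like cells (167 CPM), and megakaryocyte-like cells (157 CPM) had overlapping intervals at the top. Of the unnamed clusters, those with Scin, Slc45a3, and St8sia6 among their leading genes also held much Kit, with 356 CPM in TBM and 298 in TS in cluster 10, and 351 CPM in CBM and 327 in CS in cluster 11.

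Kit was the receptor seen in the most HSPC-like barcodes. With each barcode thinned to 2000 UMIs, 39.4% of those in CBM and 35.5% in TBM, and 46.4% in CS and 32.6% in TS had a UMI, and without thinning 87.9% to 96.0% did. Classes taken as background had far lower shares, at 1.89% of neutrophil precursor-like barcodes of TBM and 3.28% of B-lineage-like barcodes of CBM (6.47% in TBM). Hemoglobin-rich erythroid-like barcodes had 0.917% in CBM and 2.67% in TBM. In the spleen, where neither class reached 50 barcodes, hemoglobin-rich erythroid-like cells were used in their place after their values had been seen, at 1.54% in CS and 3.28% in TS. Thinned shares of CS and TS had intervals of 38.2% to 54.6% and 29.1% to 36.2%, which do not overlap, as the CPM also do not. Those of CBM and TBM, at 36.0% to 42.8% and 32.4% to 38.7%, overlap, although the CPM intervals do not.

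Flt3 (chr5:147330741-147400489, minus strand) encodes the receptor that marks multipotent and lymphoid progenitors and dendritic cell precursors. In HSPC-like cells it separated the organs rather than the tumor states. It stood there at 127 CPM in CBM and 141 in TBM, and 66.8 in CS and 59.5 in TS, with 220 to 2111 UMIs. Both spleen libraries lay below both BM libraries. The log2 ratio was -0.93 (-1.14 to -0.73) for CS over CBM and -1.24 (-1.37 to -1.12) for TS over TBM, whereas it was -0.17 (-0.39 to 0.06) for TS over CS and 0.15 (0.06 to 0.24) for TBM over CBM. Within clusters the organ difference had the same direction, at -0.94 and -0.96 for CS over CBM and at -1.22 and -1.13 for TS over TBM in clusters 0 and 5. Thinned shares of HSPC-like barcodes with a Flt3 UMI were 21.3% in CBM and 24.8% in TBM, and 10.6% in CS and 11.7% in TS, against 0% to 1.83% of hemoglobin-rich erythroid-like barcodes. The shares were above background in each library. Free RNA of Flt3 was also lower in spleen, at 30.1 CPM in CBM and 31.4 in TBM against 16.6 in CS and 6.38 in TS.

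Conventional dendritic-like cells of CS, at 211 CPM, had more Flt3 than any other class of that library. Among classes with at least 50 Flt3 UMIs over both BM libraries, the GMP-like cells differed most. There Flt3 was at 2.45 CPM in CBM (11 UMIs) and 16.7 in TBM (628 UMIs), a log2 ratio of 2.77 (1.92 to 3.78), and at 8.58 CPM in TS. With classes by marker UMIs the ratio was 0.85, short of 2-fold. This difference went with the makeup of the class. GMP-like cluster 6, led by Ms4a3, Prtn3, Ctsg, and Mpo, held 415 barcodes of TBM and 314 of TS but 13 of CBM and 12 of CS, and had 30.9 CPM of Flt3 in TBM and 10.96 in TS. In cluster 4, led by Wfdc21 and Elane, no library had more than 3.56 CPM. Free RNA held 6.38 CPM of Flt3 in TS and 30.1 to 31.4 in the BM libraries, so the GMP-like levels of BM lay below it, and the GMP-like shares of 0.952% to 3.01% were not above background. Monocyte-like cells had 23.3 CPM in CBM and 25.5 in TBM, also below free RNA, and their shares of 6.28% and 5.65% were not above background. Their levels were made up differently: in CBM cluster 26, led by S100a4 and Ahnak, had 106 CPM, whereas cluster 15, led by Lyz2 and Fn1, had 4.31 CPM in CBM and 16.8 in TBM.

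Csf1r (chr18:61100598-61132149, plus strand), the CSF1 receptor of monocytes and macrophages, was mainly in monocyte-like cells. These had 157 CPM in CBM and 87.0 in TBM, with no interval overlapping that of the next class, and the log2 ratio was -0.85 (-0.99 to -0.70). Within cluster 15 alone it was 145 and 87.1 CPM. The unnamed cluster 14 had 72.9 CPM in CBM and 94.9 in CS, where its 389 UMIs exceeded those of each named class that was counted. HSPC-like cells had 11.8 CPM in CBM and 9.69 in TBM, and 26.1 in CS and 19.2 in TS, and the spleen libraries were the higher ones. For CS over CBM the log2 ratio was 1.14 (0.74 to 1.53), but -0.52 with classes set by the marker UMIs of each barcode, and for TS over TBM it was 0.98 (0.67 to 1.30). In cluster 0 CS over CBM was 1.69 (1.19 to 2.18). Between tumor and control it was -0.29 (-0.63 to 0.05) in BM and -0.45 (-0.81 to -0.07) in spleen, where the clusters differed, at -1.20 (-2.49 to -0.12) in cluster 0 (8 UMIs in TS), -0.35 (-0.93 to 0.28) in cluster 5, and 1.78 (0.35 to 3.70) in cluster 19 (4 UMIs in CS). In the BM libraries, free RNA had more Csf1r than the HSPC-like cells, at 46.0 CPM in CBM and 21.5 in TBM. In the spleen free RNA had less, at 8.49 CPM in CS and 5.27 in TS. Thinned shares of 1.08% to 4.64% of HSPC-like barcodes were above background in none of the 4 libraries, against 0% to 3.08% of hemoglobin-rich erythroid-like cells, so these ratios are not read as differences in expression.

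GMP-like cells had Csf1r at 8.92 CPM in CBM, 18.97 in TBM, and 22.4 in TS, and their shares of 2.54% to 4.29% were not above background, so the ratio is not read as a difference in expression. TBM over CBM was 1.09 (0.63 to 1.59), but cluster 4 alone gave -0.17 (-0.91 to 0.64), and cluster 6, which was nearly absent from CBM, had 34.5 CPM in TBM. The higher class level of TBM was thus not found within cluster 4, and cluster 6 held too few CBM barcodes for a ratio.

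Epor (chr9:21958897-21963506, minus strand), the erythropoietin receptor, followed the red cell series. Hemoglobin-rich erythroid-like cells had 107 CPM in CBM and 112 in TBM, and 111 in CS and 127 in TS, and these intervals overlapped. Erythroid progenitor-like cells, counted in the spleen, had 65.2 CPM in CS and 78.1 in TS, and megakaryocyte-like cells had 16.3 to 23.5 CPM in the 4 libraries. That order of classes was the same in every library that held them, with no overlap between neighbors. Free RNA had 6.88 CPM of Epor in CBM and 4.63 in TBM but 36.3 in CS and 49.4 in TS, so the megakaryocyte-like level stood above it in BM and below it in the spleen. HSPC-like cells had 1.37 CPM in CBM (18 UMIs) and 1.47 in TBM, and 1.82 in CS (6 UMIs) and 2.86 in TS (31 UMIs), below free RNA, and shares of 0.288% to 0.662% at 2000 UMIs. No difference in Epor between tumor and control HSPC-like cells was detectable at this depth. In the unnamed clusters 10, 11, and 13 Epor was at 26.9 to 46.6 CPM in the libraries that held most of their barcodes, and in cluster 8 of TS it was at 53.3 CPM. Of these, the TBM and CBM levels stood above free RNA, whereas those of CS and TS were near or below it.

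The 250 bases upstream of the RefSeq start of Epor and Csf2ra are shown because these genes marked different lineages, red cell and myeloid. They are from RefSeq (GRCm38.p6), chr9:21963577-21963826 and chr19:61228419-61228668, both read on the minus strand, 5′ to 3′. Capitals mark matches to AGATAA or its reverse TTATCT, the core bound by GATA factors, and to GAGGAA or its reverse TTCCTC, a core bound by ETS factors such as PU.1.
Epor: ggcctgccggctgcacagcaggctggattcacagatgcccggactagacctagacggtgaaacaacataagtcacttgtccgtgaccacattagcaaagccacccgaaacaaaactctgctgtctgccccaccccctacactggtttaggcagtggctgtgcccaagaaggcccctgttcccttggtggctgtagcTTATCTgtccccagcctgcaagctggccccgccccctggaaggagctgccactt
Csf2ra: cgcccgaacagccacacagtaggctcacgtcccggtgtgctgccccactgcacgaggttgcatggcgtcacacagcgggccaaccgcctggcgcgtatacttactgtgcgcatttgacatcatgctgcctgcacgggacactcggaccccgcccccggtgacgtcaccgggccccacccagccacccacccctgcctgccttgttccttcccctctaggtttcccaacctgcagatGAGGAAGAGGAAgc
Epor had 1 match of the GATA type, whose first base is at -54 from the start, and none of the ETS type. Csf2ra had 2 of the ETS type, at -14 and -8, and none of the GATA type. Its last bases overlap the transcript as annotated by GENCODE. Of all 32851 such windows, 9.99% held the first motif and 23.3% the second. Among the 7 receptors with an entry, 1 (Epor) held the first and 3 (Kit, Csf3r, and Csf2ra) held the second. A match describes letters and is not a measured site.

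Csf3r (chr4:126024550-126044440, plus strand), the G-CSF receptor, was highest in neutrophil precursor-like cells, which only TBM held in number (53 barcodes). They had 255 CPM, and 45.3% of them had a UMI at 2000 UMIs. Elsewhere GMP-like and HSPC-like cells led, at 52.2 and 50.5 CPM in CBM, with overlapping intervals, and at 40.6 and 31.6 CPM in TS, without overlap. Over the libraries, HSPC-like cells had 50.5 CPM in CBM and 49.2 in TBM, and 32.5 in CS and 31.6 in TS. Between tumor and control, the level differed little, with log2 ratios of -0.04 (-0.19 to 0.12) in BM and -0.04 (-0.36 to 0.29) in spleen, and class intervals that exclude a 2-fold difference. In cluster 0 of the spleen, with 10 UMIs in TS, the ratio was -0.61 (-1.77 to 0.40), which does not exclude it. The spleen was lower than BM, at -0.64 (-0.94 to -0.34) for CS over CBM and -0.64 (-0.83 to -0.45) for TS over TBM, where cluster 0 gave -1.44 (-2.51 to -0.55) and cluster 5 -0.41 (-0.68 to -0.14). Free RNA was also lower in spleen, at 30.9 and 31.4 CPM in BM against 5.13 in CS and 9.98 in TS. The HSPC-like shares were above background in BM (11.2% and 9.21%). In spleen (5.30% and 5.33%) they lay below the upper limits of a background of 0%, 5.52% and 5.87%, so the rule could not separate them. By level, hemoglobin-rich erythroid-like cells had 0.66 CPM in CS (0.02 to 3.68) and 0.99 in TS (0.03 to 5.50).

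Csf2ra (chr19:61223957-61228429, minus strand), the GM-CSF alpha chain, was a gene of myeloid and dendritic cells. Monocyte-like cells were the top class of CBM, at 188 CPM, and of TBM, at 189 CPM, where the neutrophil precursor-like cells followed at 138 CPM. In CS the conventional dendritic-like cells led, at 134 CPM, and in TS the GMP-like cells, at 65.4 CPM. GMP-like cells hardly varied, between 65.4 and 74.7 CPM in CBM, TBM, and TS, and their shares of 10.2% to 13.9% were above background, although free RNA held 60.2 and 64.1 CPM in BM. HSPC-like cells had 31.0 CPM in CBM and 25.6 in TBM, and 33.1 in CS and 25.3 in TS, with ratios of -0.27 (-0.48 to -0.07) in BM and -0.39 (-0.72 to -0.06) in spleen. Free RNA had more Csf2ra than these cells in BM, and in spleen it had 32.6 CPM in CS and 20.5 in TS. HSPC-like shares were 4.76% to 8.66%, above background in CBM alone, so no tumor difference is read from these ratios.

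Il3ra (chr14:14346275-14356011, plus strand), the IL-3 alpha chain, was highest in basophil-like cells, at 104 CPM in CBM and 119 in TBM, and 76.8 in CS and 104 in TS. Mast-like cells followed in TBM, at 93.3 CPM, and in CS, at 65.5 CPM, with intervals that overlapped those of the basophil-like cells. In CBM, monocyte-like cells (68.3 CPM) and mast-like cells (63.1 CPM) came next, and monocyte-like cells of TBM had 39.8 CPM. HSPC-like cells had 23.1 CPM in CBM and 30.6 in TBM, and 27.3 in CS and 28.4 in TS. Free RNA held 36.1 and 24.4 CPM in BM, near or above these levels, and 13.03 and 8.59 CPM in spleen. The largest of its tumor ratios there was 0.41 (0.20 to 0.62) for TBM over CBM, and for TS over CS it was 0.05 (-0.29 to 0.41). At 2000 UMIs, 5.04% to 5.96% of HSPC-like barcodes had a UMI, above background in CBM and TBM and not separated from it in CS and TS.

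Il7r (chr15:9505788-9530176, minus strand), the IL-7 receptor alpha chain, was a lymphoid message with a further site in basophil-like cells. B-lineage-like cells had 494 CPM in CBM and 886 in TBM, and T or NK-like cells had 614 CPM in CS and 145 in TS. These were the top classes of their libraries. Basophil-like cells came next, at 237 CPM in CBM and 89.6 in TBM, and 228 in CS and 135 in TS, and in TS this overlapped the T or NK-like level. Of the 2 basophil-like clusters, cluster 3, led by the chemokine genes Ccl6, Ccl3, and Ccl4 and with a median depth 0.25 times that of the barcodes' own libraries, had 277 CPM in CBM and 200 in TBM, and cluster 21, led by the basophil proteases Prss34 and Mcpt8, had 40.7 and 35.2 CPM. TBM over CBM was -1.41 (-1.61 to -1.20) for the class, which drew 411 of 455 barcodes from cluster 3 in CBM but 228 of 457 in TBM. In the spleen, where cluster 3 held 292 of 297 barcodes in CS and 45 of 66 in TS, the lower class level of TS was not found within it, at 245 CPM in CS and 296 in TS, 0.27 (-0.19 to 0.71).

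Barcodes of cluster 3 with an Il7r UMI seldom had a UMI of the T cell receptor complex genes Cd3e, Cd3d, or Cd3g. In CBM 0 of 207 did, in TBM 0 of 112, in CS 1 of 140, and in TS 0 of 25. Levels of B-lineage markers are not given for cluster 3. Carry-over from B-lineage-like cells, the BM class with the most Il7r, was thus not tested. Of the CBM ones, 202 of 207 had a UMI of Mcpt8, Prss34, or Cd200r3, but so had 186 of the 204 without an Il7r UMI, since basophil markers named the cluster. Of the 10 T or NK markers, 3 to 7 had a UMI in cluster 3 of a library, and their summed level was 125 to 191 CPM against 1387 to 1846 CPM in T or NK-like cells. Cd3e and Cd3g were at 0 in cluster 3 of all 4 libraries. Cd3d and Gata3 had UMIs there in CBM, TBM, and CS, and Nkg7 and Rora had UMIs in all 4. The 6 basophil markers summed to 2304 to 5014 CPM in cluster 3, against 38591 to 54182 CPM in cluster 21 of CBM, TBM, and TS. The 7 mast markers summed to 1994 to 2302 CPM in cluster 3 and 3335 to 4821 CPM in cluster 21. The cluster with more Il7r thus had less of the markers that named the class.

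HSPC-like cells had little Il7r, at 4.17 CPM in CBM (55 UMIs) and 2.87 in TBM (43 UMIs), and 0.607 in CS (2 UMIs) and 1.84 in TS (20 UMIs), each below the free RNA of its library (14.2, 9.58, 7.3, and 2.77 CPM). CS over CBM, at -2.78 (-5.86 to -0.86), rests on the 2 UMIs of CS, and it turned to 0.18 with classes by marker UMIs. In the thinned barcodes, 0 of 151 in CS had a UMI. This allows a share of up to 1.99% by a limit of 3 counts, and up to 2.41% by the interval used for shares. In the other libraries 0.288% to 0.867% had a UMI, against up to 1.83% in hemoglobin-rich erythroid-like cells.

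Csf2rb (chr15:78325752-78353847, plus strand), the common beta chain, was the receptor at least 2-fold higher in the HSPC-like cells of both tumor libraries. Its level was 38.6 CPM in CBM (508 UMIs) and 85.3 in TBM (1277 UMIs), and 41.9 in CS (138 UMIs) and 89.6 in TS (972 UMIs). The controls of both organs lay close together, at 0.12 (-0.16 to 0.39) for CS over CBM, and so were the tumor libraries, at 0.07 (-0.05 to 0.19) for TS over TBM. The log2 ratio was 1.15 (1.00 to 1.30) in BM and 1.10 (0.84 to 1.36) in spleen, 2 comparisons that share no library. Whether BM and spleen of a group came from the same mice is not given. It fell short of 2-fold in BM with classes by marker UMIs, at 0.79, and in spleen as a mean of per-barcode levels, at 0.94.

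**Figure D2:**
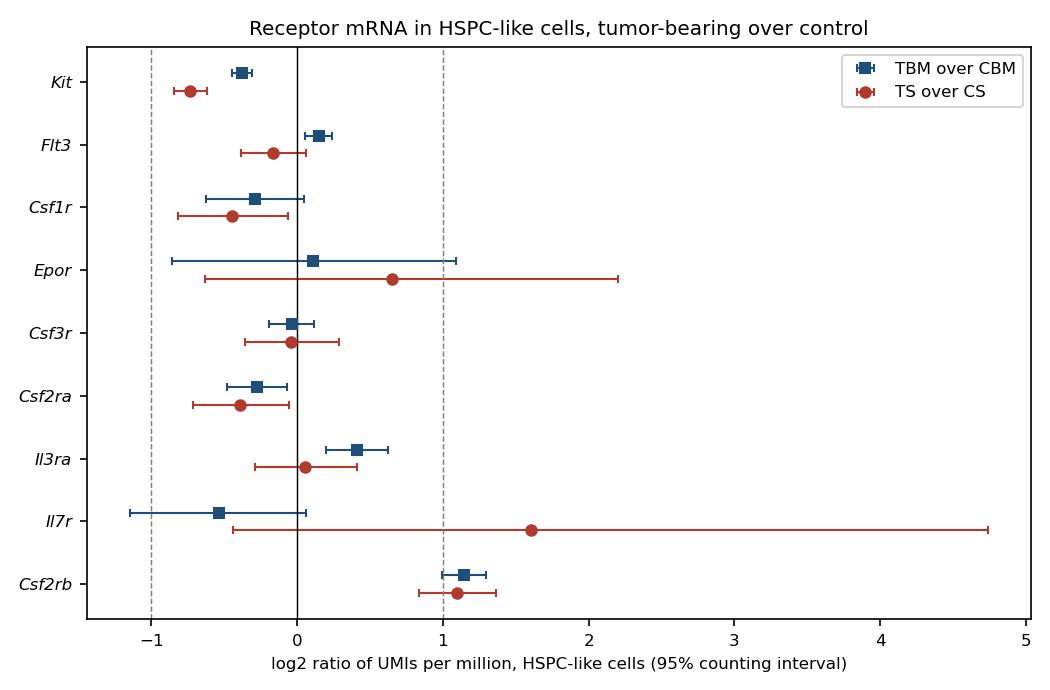
Log2 ratio of the level of each receptor in HSPC-like cells, tumor-bearing over control, in BM (squares) and spleen (circles). Bars are exact conditional 95% intervals for counting error, and dashed lines mark 2-fold. Csf2rb is at 1.15 in BM and 1.10 in spleen, and Kit is below 0 in both.

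Of the receptors with at least 50 UMIs over the libraries compared, Csf2rb was the only one of 7 past 2-fold for TS over CS and the only one of 8 for TBM over CBM, both upward, against 2.89% of all 10313 and 2.79% of all 11463 genes so tested. For CS over CBM, 1 of 8 was 2-fold higher (Csf1r) and 1 lower (Il7r), against 2.56% of genes, and for TS over TBM 1 of 9 was lower (Flt3), against 3.23%. The last comparisons share their libraries with the first. The median log2 ratio of the receptors was -0.17 for TS over CS and -0.16 for TBM over CBM, beside -0.03 and -0.02 over all genes tested.

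The higher level of Csf2rb was found in separate HSPC-like clusters. In cluster 0 it was 40.8 CPM in CBM and 86.3 in TBM, and 39.3 in CS and 82.7 in TS. In cluster 5 it was 33.1 and 83.6 CPM in BM, and 39.3 and 95.7 CPM in spleen. The log2 ratios were 1.08 (0.90 to 1.26) and 1.34 (1.05 to 1.63) in BM and 1.07 (0.46 to 1.68) and 1.28 (0.86 to 1.74) in spleen, in clusters 0 and 5 in turn. In cluster 19, which CBM lacked, the spleen ratio was 0.49 (-0.04 to 1.06), at 52.7 CPM in CS and 73.8 in TS. Without cluster 19 the spleen ratio of the class was 1.27 and that of BM 1.15, an alternative added after seeing the data.

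**Figure D3:**
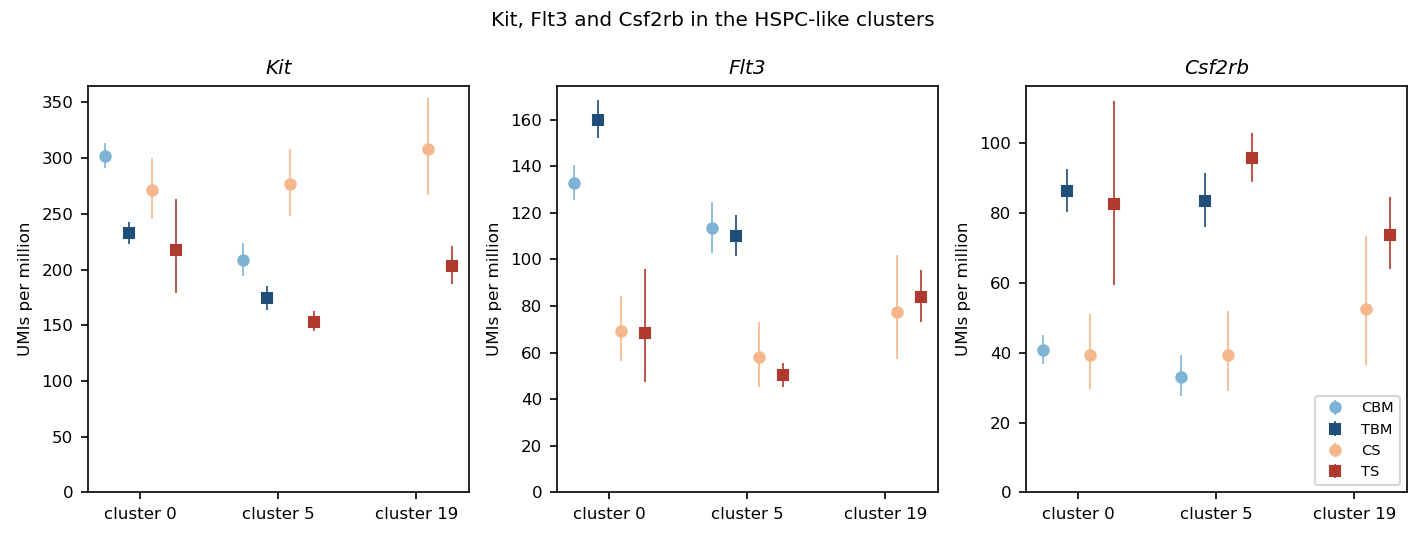
Level (CPM) of Kit, Flt3, and Csf2rb within the 3 HSPC-like clusters by library, where a cluster held at least 20 barcodes. Bars are exact Poisson 95% intervals. Csf2rb of TBM and TS lies above that of CBM and CS in clusters 0 and 5, and Flt3 of CS and TS lies below that of CBM and TBM.

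More HSPC-like barcodes had a Csf2rb UMI in the tumor libraries. At 2000 UMIs the share was 7.20% in CBM (95% interval 5.52% to 9.18%) and 14.7% in TBM (12.5% to 17.2%), and 8.61% in CS (4.66% to 14.3%) and 12.97% in TS (10.6% to 15.7%). Only the BM intervals did not overlap. At full depth the shares were 39.5%, 61.0%, 52.3%, and 58.1%, and CS, whose HSPC-like cells had a median of 19395 UMIs, was the deepest. Hemoglobin-rich erythroid-like cells had 0% to 1.54%. Free RNA of CBM and TBM held 65.8 and 80.3 CPM of Csf2rb, which is above the CBM level and near the TBM level of HSPC-like cells, whereas that of CS and TS, at 25.9 and 19.4 CPM, was below it. The shares were above background in CBM, TBM, and TS, and in CS, with 151 HSPC-like and 65 background barcodes, the intervals overlapped.

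**Figure D4:**
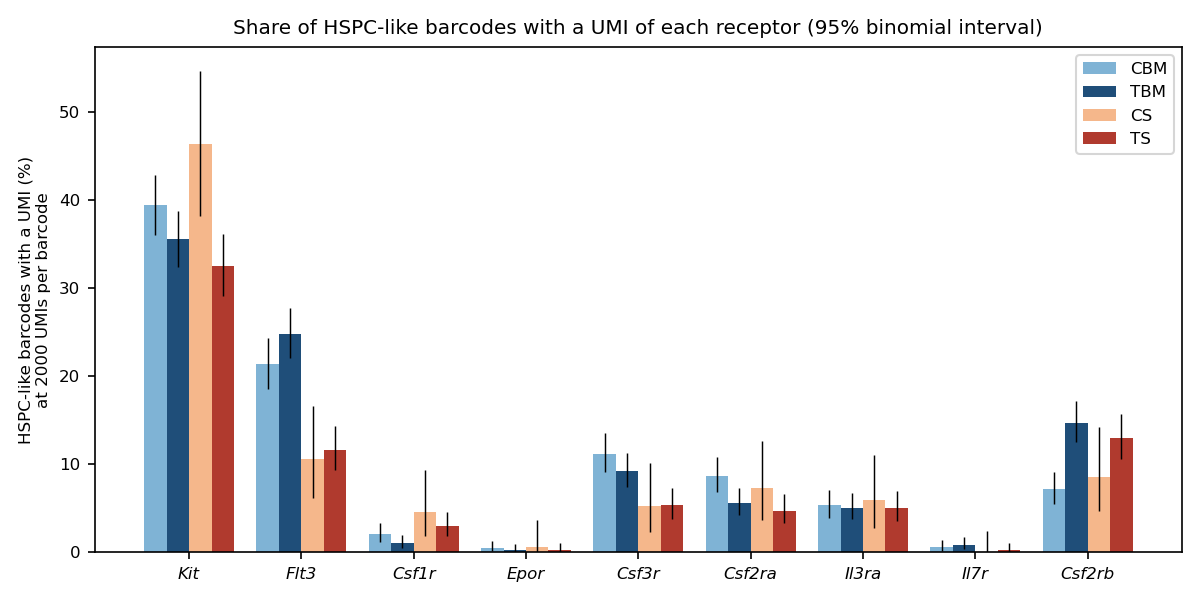
Share of HSPC-like barcodes (%) with a UMI of each receptor after thinning each barcode to 2000 UMIs, by library, with exact binomial 95% intervals. Csf2rb is at 14.7% in TBM and 12.97% in TS against 7.20% in CBM and 8.61% in CS, and Flt3 is lower in both spleen libraries.

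Summed markers of other cell classes in the HSPC-like cells were higher with a tumor in both organs, except those of monocytes in spleen. Unlike Csf2rb, the mast and the T or NK sums were higher in CS than in TBM. The neutrophil precursor sum was higher in CBM than in TS. The 6 basophil markers summed to 15.6 CPM in CBM and 55.7 in TBM, and 15.5 in CS and 42.2 in TS, against 3824 to 27484 CPM in basophil-like cells, and all 6 had a UMI in CBM, TBM, and TS, while Prss34 and Fcer1a were at 0 in CS. The 5 GMP markers summed to 1652 CPM in CBM and 2688 in TBM, and 1883 in CS and 2156 in TS. The 11 neutrophil precursor markers summed to 29.5, 135, 10.6, and 22.5 CPM. The 7 mast markers summed to 102 CPM in CBM and 146 in TBM, and 195 in CS and 213 in TS, with Tpsb2 and Mcpt4 at 0 throughout. The 10 T or NK markers summed to 153, 171, 225, and 288 CPM, with Cd3e and Cd3g at 0 except in TBM. The 6 monocyte markers summed to 157 and 193 CPM in BM but 146 and 134 CPM in spleen, lower with a tumor there. The 10 HSPC markers themselves summed to 1560, 1301, 1339, and 1013 CPM, lower in both tumor libraries. Their part in the result was not tested. A reading of Csf2rb also depends on its neighbor Csf2rb2, the IL-3-specific beta chain of mice (chr15:78282507-78305721). It shares 17.1% of the 50-base windows of Csf2rb transcripts and 12.2% of those in their last 600 bases. Of the windows in the last 600 bases of Csf2rb2 transcripts, 1.91% were shared with Csf2rb. Reads from shared windows may not be told apart, and how they were counted was not tested.

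**Figure D5:**
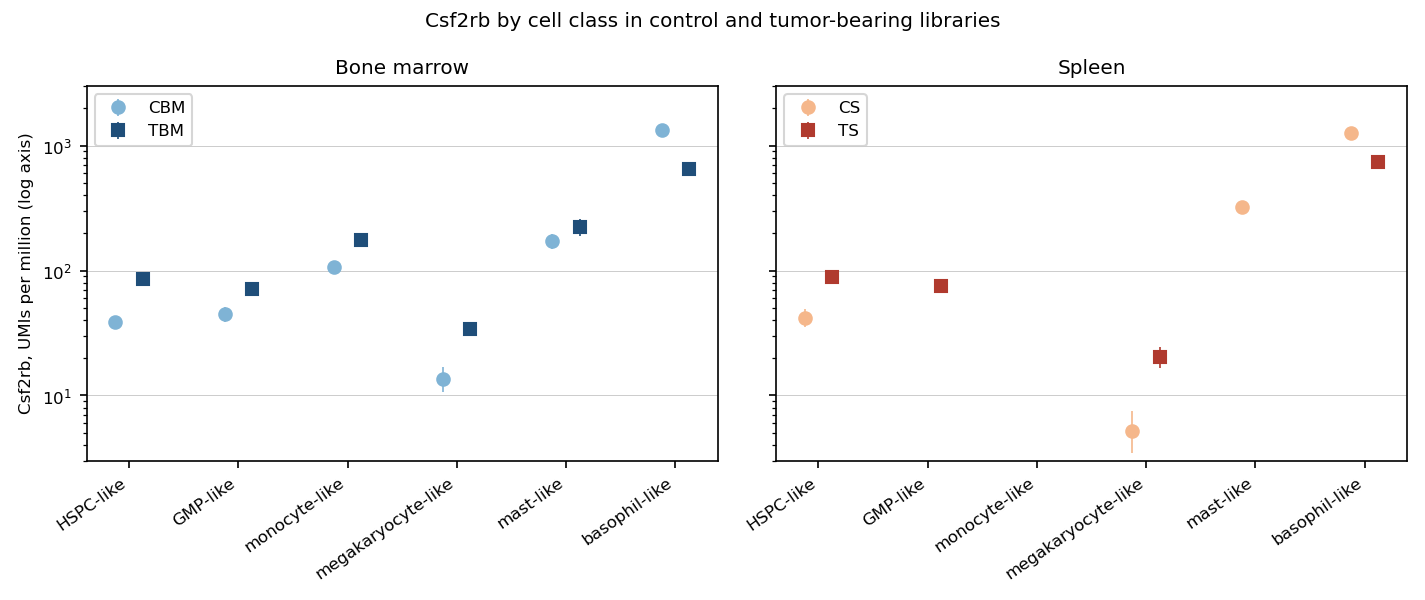
Level of Csf2rb (CPM, log axis) in 6 cell classes of BM and spleen, control (circles) and tumor (squares), with exact Poisson 95% intervals, where a library held at least 50 barcodes of the class. TBM and TS lie above CBM and CS in HSPC-like and megakaryocyte-like cells and below them in basophil-like cells. Of the megakaryocyte-like cells, only those of TBM had a share of barcodes above background.

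Outside the HSPC-like class Csf2rb was at least 2-fold higher with a tumor in megakaryocyte-like cells of BM and spleen. In GMP-, monocyte-, mast-, and B-lineage-like cells of BM it was higher by less than 2-fold. It was lower in basophil-like cells as a class. Erythroid progenitor-like cells had 1.27 CPM in CS and 1.14 in TS, at -0.16 (-0.64 to 0.33), far below free RNA. Megakaryocyte-like cells had 13.6 CPM in CBM and 34.1 in TBM, and 5.17 in CS (28 UMIs) and 20.1 in TS (107 UMIs), with log2 ratios of 1.33 (0.98 to 1.70) and 1.96 (1.35 to 2.62). Within the megakaryocyte-like clusters 9 and 12 the ratios were 1.42 and 1.18 in BM and 1.85 and 1.92 in spleen. All these class levels except that of TS lay below the free RNA of their library, and the shares, at 1.93%, 7.51%, 0.971%, and 5.25% in turn, were above background in TBM alone. The spleen ratio of the megakaryocyte-like cells is thus not read as a difference in expression. Their BM ratio sets a TBM share above background against a CBM share not separated from it, so its size is uncertain. GMP-like cells had 44.8 CPM in CBM and 71.5 in TBM, a ratio of 0.67 (0.47 to 0.89), and 75.2 CPM in TS, where both BM levels lay below free RNA and the share was above background in TBM (12.5%) and TS (11.9%) but not in CBM (6.09%). Within GMP-like cluster 4 Csf2rb was 37.0 CPM in CBM and 56.5 in TBM, and 31.4 in CS (36 barcodes) and 64.6 in TS. Monocyte-like cells had 107 CPM in CBM and 176 in TBM, a ratio of 0.72 (0.59 to 0.86), and 0.67 (0.53 to 0.81) within cluster 15. Mast-like cells had a ratio of 0.37 (0.07 to 0.67). B-lineage-like cells, at 24.7 CPM in CBM (39 UMIs) and 41.1 in TBM (32 UMIs), had 0.74 (0.02 to 1.45), with both levels below free RNA and both shares, at 6.15% and 7.06%, above background.

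Basophil-like cells, which respond to IL-3 and GM-CSF, had by far the most Csf2rb, at 1338 CPM in CBM and 645 in TBM, and 1265 in CS and 738 in TS, and 73.2% to 92.7% of them had a UMI at 2000 UMIs. The next classes were the mast-like cells, at 171 CPM in CBM, 221 in TBM, and 323 in CS, and the HSPC-like cells of TS. The ratio for TBM over CBM was -1.05 (-1.13 to -0.97), and within clusters it was -0.45 (-0.54 to -0.35) in cluster 3, at 1482 CPM in CBM and 1088 in TBM, and -0.58 (-0.79 to -0.37) in cluster 21, at 637 and 426 CPM. In BM the direction was thus the same in both clusters and the size less than 2-fold in each. In the spleen, cluster 3 had 1340 CPM in CS and 1222 in TS, at -0.13 (-0.35 to 0.08), so the lower class level of TS was not separated from equal levels within the cluster that held most of these barcodes.

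In the remaining comparisons of tumor and control, counts of receptors past 2-fold are read against all genes. Among GMP-like cells, 2 of 7 receptors were 2-fold higher for TBM over CBM (Flt3 and Csf1r, background 5.49% of genes), and in monocyte-like cells 0 of 7 passed, against 4.96%. In basophil-like cells, 0 of 4 passed for TS over CS, with 13.2% of genes past 2-fold, and 2 of 5 were lower (Il7r and Csf2rb) for TBM over CBM, with 10.2%. Both of these fell short of 2-fold as means of per-barcode levels, and Csf2rb also with classes by marker UMIs. Megakaryocyte-like cells had 1 of 5 higher for TS over CS (2.76% of genes) and 1 of 7 for TBM over CBM (2.57%), in both Csf2rb. No receptor passed in mast-like (0 of 4, 2.6%), hemoglobin-rich erythroid-like (0 of 2, 1.47%), or B-lineage-like cells (0 of 4, 7.22%) for TBM over CBM, or in hemoglobin-rich erythroid-like cells for TS over CS (0 of 1, 4.69%).

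Between the organs, 4 receptors passed outside the HSPC-like class, each alone in its comparison. Kit in mast-like cells, given above, was higher for CS over CBM, at 1.14 (0.93 to 1.35), 1 of 4 receptors against 4.71% of genes. Csf2rb in megakaryocyte-like cells was lower for CS over CBM, at -1.39 (-2.07 to -0.75), 1 of 5 against 1.63%, but at -0.10 without the barcodes with the highest Scrublet (doublet) scores. Flt3 in megakaryocyte-like cells was 6.04 CPM in TBM (64 UMIs) and 1.32 in TS (7 UMIs), at -2.20 (-3.57 to -1.07), 1 of 6 against 3.88%. Epor in GMP-like cells was 0.266 CPM in TBM (10 UMIs) and 3.65 in TS (54 UMIs), at 3.78 (2.79 to 4.92), 1 of 8 against 2.82%. These levels of Csf2rb, Flt3, and Epor all lay below the free RNA of their library, and the shares of Csf2rb and Flt3 were not above background. For Epor that was 4.63 CPM in TBM and 49.4 in TS, and with 10% free RNA subtracted its ratio was 1.35. In basophil-like cells 0 of 5 passed between the controls (2.55%) and between the tumor libraries (7.51%), and in hemoglobin-rich erythroid-like cells 0 of 2 (2.17%) and 0 of 1 (5.18%).

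The unnamed cluster 14, with genes of monocytes and of granulocyte precursors among its leading genes, carried messages of several receptors. In CBM it had 104 CPM of Kit, 72.9 of Csf1r, 61.7 of Csf2ra, and 58.2 of Csf2rb, and in CS it had 119, 94.9, 77.6, and 55.4 CPM of the same genes, so its levels in the control libraries lay near each other. Against free RNA, Csf1r stood above in both libraries, as did Kit (93.2 CPM), Csf2ra (32.6 CPM), and Csf2rb (25.9 CPM) in CS, whereas Kit, Csf2ra, and Csf2rb of CBM were near or below it (98.9, 60.2, and 65.8 CPM). Csf3r was 35.7 CPM in CBM and 42.7 in CS. The 27 TBM barcodes had 116 CPM of Csf2rb, against 80.3 in free RNA, and 67.3 of Kit, below free RNA. Monocyte-like cells, in contrast, had Kit at 13.9 CPM in CBM and 7.74 in TBM, below the free RNA of both libraries.

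T or NK-like cells of the spleen stood out for how many receptors differed, with 4 of 5 at least 2-fold lower in TS than in CS, where 10.3% of genes passed in either direction. Kit was 246 CPM in CS and 112 in TS, at -1.13 (-1.36 to -0.92). Flt3 was 55.5 and 17.4 CPM, at -1.68 (-2.23 to -1.15), and Csf2ra was 29.3 and 11.01 CPM, at -1.41 (-2.14 to -0.72). Il7r was 614 and 145 CPM, at -2.08 (-2.26 to -1.91). Csf2ra of both libraries and Kit of TS lay below free RNA, which held 32.6 and 20.5 CPM of Csf2ra in CS and TS and 119 of Kit in TS. The shares of Kit (31.4% and 17.6%) and Il7r (52.9% and 31.2%) were above background in both libraries, and those of Flt3 (9.92% and 3.20%) and Csf2ra (8.26% and 0%) in neither. With classes set by the marker UMIs of each barcode, Il7r stayed past 2-fold, at -1.22, whereas Kit (-0.25) and Csf2ra (-0.35) did not, and Flt3 turned to 1.44. Most of these cells belonged to cluster 24 (80 CS and 103 TS barcodes), led by Trbc1, Ly6d, Tcrg-C2, Il2ra, and Tcf7, genes of early T and lymphoid progenitors. In cluster 24 alone Kit was 272 and 115 CPM, Flt3 69.3 and 15.7 CPM, Csf2ra 33.4 and 10.8 CPM, and Il7r 536 and 127 CPM, the same order. The 10 T or NK markers of the class summed to 1846 CPM in CS and 1387 in TS, all 10 with a UMI, and the 10 HSPC markers to 389 and 363 CPM, with Mecom at 0 in both. The 6 monocyte markers summed to 269 CPM in CS and 87.2 in TS, where Fn1 was at 0, the 7 mast markers to 218 and 321, the 5 GMP markers to 113 and 199, the 6 basophil markers to 4.54 and 13.6, and the 11 neutrophil precursor markers to 2.52 and 12.7 CPM. Their part in the result was not tested.

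Erythroid progenitor-like cells, the largest class of the spleen, had 0 of 7 receptors past 2-fold for TS over CS, against 5.06% of genes. Kit, at 154 and 167 CPM, and Epor, at 65.2 and 78.1 CPM, differed by 0.12 (0.08 to 0.16) and 0.26 (0.20 to 0.32) on the log2 scale, small next to 2-fold. Within cluster 1, with 68 barcodes of CS and 1013 of TS, Epor was 81.3 and 79.0 CPM, at -0.04 (-0.21 to 0.13), so its class difference was not found there. The libraries filled this class from different clusters, with 679 of the CS barcodes in cluster 7 and 1013 and 1050 of those of TS in clusters 1 and 2. Csf2ra was the receptor that differed most among those with enough UMIs, at 12.9 CPM in CS and 8.47 in TS, -0.60 (-0.76 to -0.44), and both levels lay below the free RNA of their library (32.6 and 20.5 CPM). Cluster 8 of TS, outside the class, had 191 CPM of Kit.

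Receptor chains that work together were seldom caught in 1 barcode at 2000 UMIs. Csf2ra with Csf2rb was seen in 0.122% of HSPC-like barcodes in CBM and 0.650% in TBM, and 0.662% in CS and 0.432% in TS, and Il3ra with Csf2rb in 0.662% to 1.08%. Kit with Flt3 was more frequent, at 8.41% in CBM and 9.75% in TBM, and 4.64% in CS and 3.75% in TS. In CBM, 21.4% of the barcodes with a Kit UMI and 21.3% of those without had a Flt3 UMI, so the shares lay close together. Flt3 with Il7r was seen in 0 to 4 barcodes of a library, and Csf1r with Csf3r in 1 to 3. Shares of the chain pairs depended on depth. At 5000 UMIs Csf2ra with Csf2rb was seen in 3.30% of barcodes in CBM and 2.96% in TBM, and 2.67% in CS and 3.36% in TS. Il3ra with Csf2rb was then seen in 2.03% to 5.33%.

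Genes whose level followed that of a receptor over the 32 sums of class and library were ranked by Pearson's r of log2(CPM + 1). These sums share libraries and depth, so r is a description. Ranked by Spearman's rho of CPM instead, 11 of the 27 genes stayed among the nearest 3, with none for Csf1r, Csf2ra, and Il7r. Aqp1 (0.96), a water channel of red cells, Ces2g (0.94), and Klf1 (0.93), a transcription factor of the red cell lineage, were nearest to Epor, and Aqp1 and Klf1 were on the marker list of the erythroid progenitors. Rin3 (0.93), Tmem50a (0.93), and Rnf130 (0.93) were nearest to Il3ra. Ikzf3 (0.93), which encodes the lymphoid transcription factor Aiolos, Atp1b1 (0.85), and Baz2a (0.83) were nearest to Il7r. Fcgr2b (0.92), an inhibitory Fc receptor, Cebpa (0.91), a transcription factor of the myeloid lineage, and Alox5ap (0.91), needed for leukotriene synthesis, were nearest to Csf2rb. Csf3r was followed by Lbp (0.89), Prtn3 (0.87), a protease of neutrophil granules and a GMP marker, and Mgst1 (0.85). Csf2ra was followed by Rab32 (0.90), App (0.89), and Tor1a (0.89), and Kit by Ttc3 (0.87), Mpp7 (0.86), and Elp2 (0.86). For Flt3 they were Alcam (0.83), 1700025G04Rik (0.82), and Ly6a (0.80), the gene of the Sca-1 antigen of the sort and an HSPC marker, and for Csf1r Lmo1 (0.80), Abcd2 (0.76), and C1galt1c1 (0.76).

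Ligands, partner chains, and signaling genes of these receptors were counted from a list of 37. In HSPC-like cells 28 had enough UMIs in each comparison. For TBM over CBM, 3 were at least 2-fold higher and 0 lower, and for TS over CS 2 were higher and 2 lower, against 2.79% and 2.89% of all genes tested in either direction. Csf2rb2 was 5.39 CPM in CBM and 16.0 in TBM, at 1.57, and 6.68 in CS and 15.4 in TS, a ratio of 1.204, so both beta chain genes were higher with a tumor. Socs3, a feedback inhibitor of cytokine signaling, was 25.4 CPM in CBM and 82.0 in TBM, at 1.69, and 38.9 in CS and 100 in TS, at 1.36. Osm, a cytokine gene induced through STAT5, was 11.8 CPM in CBM and 27.3 in TBM, at 1.22, both below free RNA, as was Csf2rb2 in the control libraries.

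Spry1, a feedback inhibitor of receptor tyrosine kinases, was among the lower ones, at 19.7 CPM in CS and 4.88 in TS, a log2 ratio of -2.01. For TS over TBM it was also lower, at -1.66, where 0 of 28 genes were 2-fold higher and 2 lower, against 3.23% of all genes. For CS over CBM 0 of 28 passed, against 2.56%. None of the 7 JAK and STAT genes passed 2-fold in any of the 4 comparisons. With 2.56% to 3.23% of all genes past 2-fold, 0 of 7 lies near that share.

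Few of the 11 ligand genes had a message in these classes. Csf1, which encodes the ligand of Csf1r, was highest in basophil-like cells, at 625 CPM in CBM and 254 in TBM, and 802 in CS and 480 in TS. Flt3l was also highest there, at 32.7 CPM in CBM and 31.4 in TBM, and 38.1 in CS and 24.7 in TS (9 UMIs). Kitl had at most 5 UMIs in any class of a library, and Epo and Il3 had 0 in every named class. Csf2 had 10 UMIs in the T or NK-like cells of CS (5.05 CPM).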

How the data were processed

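The deposited values are UMI counts per gene and barcode, whole numbers without normalization, made by the authors with Cell Ranger 4.0 (mm10 and Cell Ranger are named in the submitters' processing notes) for all 6794880 barcodes of each of 4 libraries. Gene names and barcodes were read from the deposited lists. The study's later steps (ambient RNA removal, SCT normalization) are not in these counts. Barcodes were filtered as stated. Pearson residuals (theta 100) were reduced with scikit-learn 1.9.0, which also gave the nearest neighbors of each barcode. Clusters were found with leidenalg 0.10.2 at a resolution of 1.2, leaving out the receptors and the 37 pathway genes. Scrublet scores came from scanpy 1.11.5. The clustering was recomputed in double precision after values of a single-precision run had been seen, because that run could not be repeated. Clusters were named from fixed markers, and those whose leading genes went against a name stayed unnamed. Levels were summed UMIs per 1000000 (CPM) of a class with at least 50 barcodes. Intervals (95%) were exact Poisson for levels, conditional for ratios, and Clopper-Pearson for shares, from scipy 1.17.1. PCR duplicates are collapsed by UMIs, and intervals cover counting error only. With 1 library per group no test was run. A receptor counted as different at 2-fold with at least 50 UMIs over both libraries. No doublets were removed except in alternatives. The interval and ratio steps were tested on simulated counts. Named genes were the 9 receptors, the 3 genes nearest to each, pathway genes past 2-fold in HSPC-like cells (1 of them is not reported here), and the ligands. The receptors, lists, and alternatives were chosen with earlier results of these data known. Positions are from GENCODE vM21 on GRCm38. Sorted populations were announced as 5, while 6 gates are listed.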

Additional observations from a re-analysis of the deposited data

How the results depend on the processing

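19 log2 ratios were at least 2-fold over all named classes, 6 for TS over CS, 6 for TBM over CBM, 4 between the controls, and 3 between the tumor libraries. All 19 stayed past 2-fold with at least 1500 genes per barcode, without the deepest 5% of barcodes, with 10% free RNA subtracted, and without shared barcodes, as did the 5 in HSPC-like cells without cluster 19. 18 did without the 5% of barcodes with the highest Scrublet scores, at a resolution of 0.8, and with other scaling, 17 at most 5% mitochondrial UMIs, 15 as means per barcode, 14 of 15 at a resolution of 2, and 10 with classes set by the marker UMIs of each barcode. The ratio of Csf2rb in HSPC-like cells ranged from 0.94 to 1.28 for TS over CS and from 0.79 to 1.27 for TBM over CBM, and was under 2-fold in spleen as a mean per barcode and in BM with classes by marker UMIs. The causes were not tested.

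Counts for TS over TBM and CS over CBM below are in HSPC-like cells, where 1 and 2 passed. With classes by marker UMIs, 23 ratios passed for TS over CS and 13 for TBM over CBM over all classes (6 each in the report), 0 for TBM over CBM in HSPC-like cells (1) and 3 for TS over TBM (1), and 1 receptor had 1 highest class (3), as with at least 1500 genes. A resolution of 2 gave 3 for TS over CS over all classes, 2 for TS over TBM, and 1 for CS over CBM (2). Without a UMI minimum 2 passed for TS over CS in HSPC-like cells (1), and 14 and 14 over all classes. A minimum of 200 UMIs gave 3 for TS over CS over all classes. That minimum and, separately, at most 5% mitochondrial UMIs each gave 1 for CS over CBM. Subtracting 10% free RNA and means per barcode each gave 3 for TS over TBM. 4 ratios turned sign. Csf1r of TBM over CBM in GMP-like cells was -0.17 in the largest cluster and -1.22 with classes by marker UMIs. With those classes, Flt3 in T or NK-like cells was 1.44, and for CS over CBM in HSPC-like cells Csf1r was -0.52 and Il7r 0.18. No paired analysis was possible because each group is 1 library and no result comes from a test. Depth limits Epor and Il7r in HSPC-like cells, with 2 to 55 UMIs in a library.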
